A study of Mus musculus with 8 samples.

Results

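The EGR, NR4A, Arc and Npas4 activity genes were taken as the rows whose symbol was Egr1, Egr2, Egr3, Egr4, Nr4a1, Nr4a2, Nr4a3, Arc or Npas4. All 9 were found among the 24942 genes listed, and all 9 passed the filter of a mean normalized value of at least 10 over the 8 libraries. RNA was sequenced from retinal ganglion cells, the neurons whose axons form the optic nerve. They were isolated by immunopanning, in which antibody-coated plates capture the cells, and were lysed on the plate without culture. The 4 NPC1-deficient libraries came from mice of postnatal day 8, and the 4 wildtype libraries came from littermates of the same age. The labels name the strain balb/cnctr-npc1m1n/j for both groups. How many animals each library held is not given in the sources used here, so the p-values measure the spread between these libraries. NPC1 is the lysosomal membrane protein that releases cholesterol, and the study asked how its loss changes expression in this neuron.

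These genes are transcribed within minutes when calcium entry or growth factor signalling reaches the nucleus, and their mRNAs are short-lived. EGR1 to EGR4 are zinc finger transcription factors that bind GC-rich sites. NR4A1, NR4A2 and NR4A3 are orphan nuclear receptors. NPAS4 is a basic helix-loop-helix factor that neurons induce through calcium entry, and ARC is a postsynaptic protein that takes AMPA receptors off the surface.

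Recovered reads per library ran from 33030175 to 44050118, and the values used below are the authors' normalized reads, which are reads divided by 1 size factor per library. Npc1 checks the genotype labels, and it stood at 140, 70.05, 67.6 and 66.1 normalized reads in NPC1-deficient 1 to 4, against 707, 754, 831 and 857 in wildtype 1 to 4 (exact two-sided permutation test p = 0.0286, the smallest that 70 assignments allow). Genotype was taken from the titles. The value entered beside the strain name is instead wildtype for libraries 1 and 2, whatever the title, and homozygous for libraries 3 and 4. The Npc1 level followed the titles, and that value serves here only to form 2 library sets. Ganglion cell markers were abundant in every library, with the 10 markers summing to 280200 to 315000 normalized reads in NPC1-deficient and 269600 to 285800 in wildtype libraries.

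The stretches upstream of the start sites are shown because genes of this kind are known to be induced through short elements near the start site. RefSeq promoter entries on GRCm38.p6 were matched for 6 of the 9 genes. Egr1, Egr3 and Arc had no entry in the reference used, so their elements were not searched. Each stretch below runs from 250 bases before the start site up to the start site or to the first base of an annotated exon. Capitals mark the core of the cAMP response element, TGACG on either strand, and in Egr2 also the CArG box, at which serum response factor binds. For Egr2, the third of its annotated start sites is shown.
Nr4a1, chr15:101266596-101266845, plus strand: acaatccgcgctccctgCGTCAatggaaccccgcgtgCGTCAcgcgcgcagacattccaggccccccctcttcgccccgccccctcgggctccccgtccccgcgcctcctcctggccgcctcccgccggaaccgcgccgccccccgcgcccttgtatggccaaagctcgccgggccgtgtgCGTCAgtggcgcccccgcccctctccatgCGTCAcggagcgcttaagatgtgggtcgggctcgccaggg
Nr4a3, chr4:48045055-48045152, plus strand: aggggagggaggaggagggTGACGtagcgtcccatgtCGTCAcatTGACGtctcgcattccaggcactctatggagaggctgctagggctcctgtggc
Egr4, chr6:85513590-85513839, minus strand: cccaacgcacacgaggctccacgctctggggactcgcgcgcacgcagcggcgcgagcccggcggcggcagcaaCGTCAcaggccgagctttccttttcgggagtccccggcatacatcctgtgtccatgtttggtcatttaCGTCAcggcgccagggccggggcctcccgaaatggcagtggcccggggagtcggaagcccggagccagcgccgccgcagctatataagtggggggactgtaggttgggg
Egr2, chr10:67537619-67537868, plus strand: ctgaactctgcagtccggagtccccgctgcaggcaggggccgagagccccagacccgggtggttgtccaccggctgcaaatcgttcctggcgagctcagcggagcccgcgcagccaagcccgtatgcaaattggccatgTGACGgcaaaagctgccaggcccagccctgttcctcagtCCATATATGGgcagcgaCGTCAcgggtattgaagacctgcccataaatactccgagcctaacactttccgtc

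In the whole 250 bases, TGACG occurred on either strand 4 times for Nr4a1, 4 times for Nr4a2, 4 times for Nr4a3, 2 times for Egr4 and 2 times for Npas4. For Egr2 it occurred 0 times at the first start site, the most upstream, and 2 times at the third. Of 32851 RefSeq windows of 250 bases, 17.8% held at least 1 such core. The full element TGACGTCA occurred in no window of the matched genes and in 1.55% of the RefSeq windows. A CArG box lay in the windows of 4 of the 5 annotated Egr2 start sites, which overlap for the third to the fifth, and 1.47% of the RefSeq windows held one. The EGR site GCGNGGGCG, searched on both strands, occurred 1 time each for Nr4a1 and Nr4a2, and 4.7% of the windows held it.

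Across the 9 genes the log2 fold change, NPC1-deficient minus wildtype, was negative for 8, with Nr4a3 the exception, while 48% of all 15386 genes tested were negative. The median over the 9 was -0.62 on the log2(value + 1) scale, beside 0.005 over all genes tested. In limma with Benjamini-Hochberg adjustment over all genes, 1 of the 9 was called at 0.05, Nr4a1, and it was lower, as were 0.065% of all genes. None of the 9 was called higher, beside 0.039% of all genes. At an unadjusted p under 0.05, 6 of the 9 were lower, beside 4.37% of all genes. With DESeq2 on the recovered reads, 4 of the 9 were called lower, Egr1, Egr2, Egr4 and Nr4a1, beside 1.29% of all genes. In 5 of the 9, Egr1, Egr2, Egr4, Nr4a1 and Arc, every NPC1-deficient library lay below every wildtype library, which was so for 2.41% of all genes. Leaving out any 1 library gave between 5 and 6 such genes, beside 3.46% to 4.43% of all genes. The reverse, every NPC1-deficient library above every wildtype library, held for 0 of the 9 and for 1.86% of all genes. In RNA from whole preparations, fewer cells of a type and less RNA per cell cannot be told apart.

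**Figure D1:**
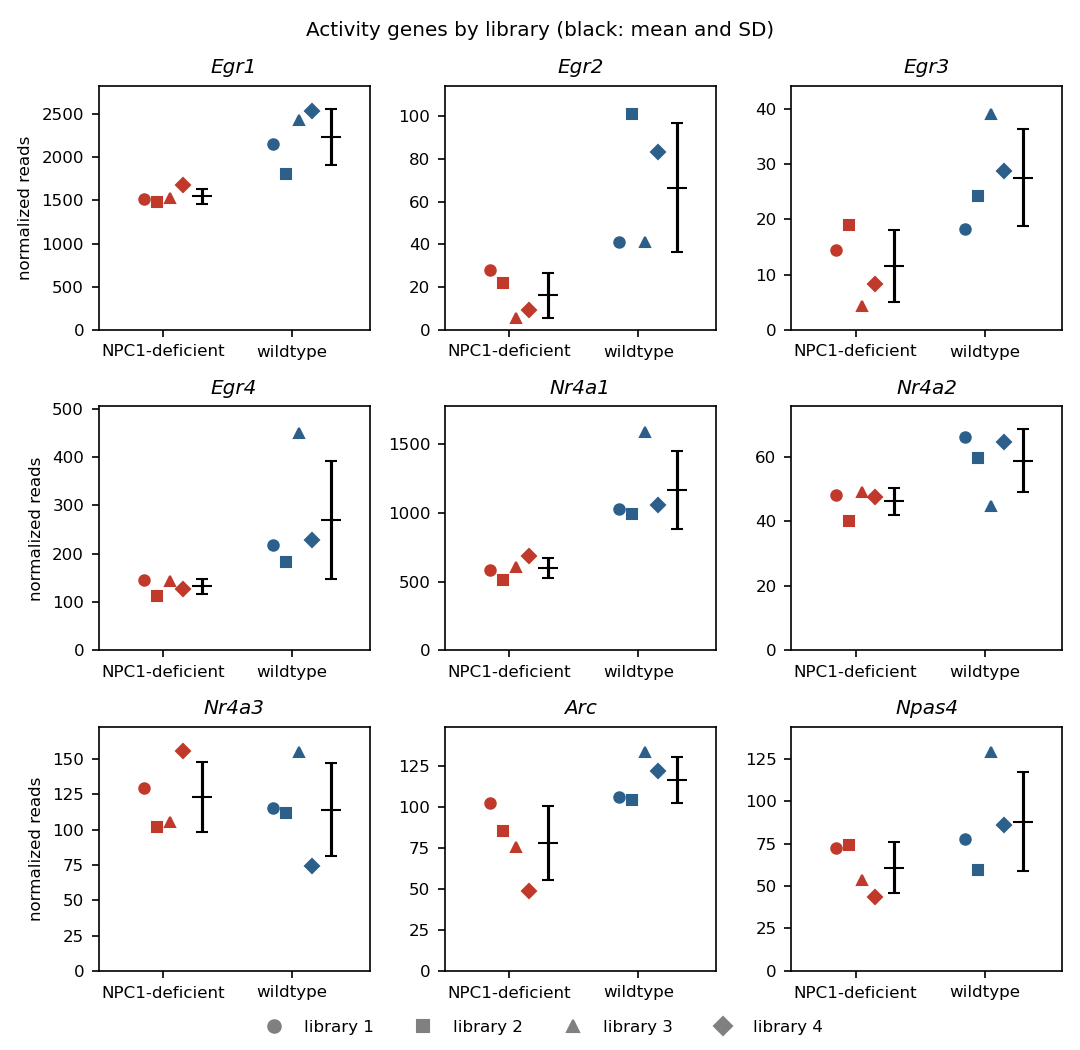
Normalized reads (vertical axes, starting at 0) of the 9 activity genes in the 4 NPC1-deficient libraries (red, left) and the 4 wildtype libraries (blue, right), with symbols for library 1 to 4 and the mean and SD in black. The NPC1-deficient and wildtype points do not overlap for Egr1, Egr2, Egr4, Nr4a1 and Arc, and they overlap for Egr3, Nr4a2, Nr4a3 and Npas4.

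Egr1 (ENSMUSG00000038418, chromosome 18, 34859823 to 34864984, plus strand, mm10) encodes a zinc finger factor induced in many cell types. It had 1511, 1478, 1525 and 1676 normalized reads in NPC1-deficient 1 to 4, against 2154, 1807, 2434 and 2540 in wildtype 1 to 4. The NPC1-deficient libraries lay close together and all below the lowest wildtype library, wildtype 2. The log2 fold change was -0.52 (SE 0.09), and it missed the threshold over all genes (limma adjusted p = 0.0679). Libraries 1 and 2 gave -0.40 and libraries 3 and 4 gave -0.64.

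Egr2 (ENSMUSG00000037868, chromosome 10, 67535475 to 67542188, plus strand), known for its roles in the hindbrain and in myelinating Schwann cells, had the largest fold change of the 9. It had 28.1, 22.0, 5.45 and 9.29 normalized reads in NPC1-deficient 1 to 4, against 41.0, 101, 41.0 and 83.4 in wildtype 1 to 4. NPC1-deficient 3 and 4 were lowest, resting on 5 and 9 reads, and no NPC1-deficient library reached the wildtype range. NPC1-deficient minus wildtype came to -2.10 in log2 units, with an SE of 0.46, and was not called (limma adjusted p = 0.102), with -1.34 within libraries 1 and 2 and -2.87 within libraries 3 and 4.

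Egr3 (ENSMUSG00000033730, chromosome 14, 70077203 to 70082614, plus strand), which in the mouse is needed for muscle spindles, was the least abundant. Its normalized reads were 14.5, 19.01, 4.36 and 8.26 in NPC1-deficient 1 to 4, against 18.2, 24.2, 39.2 and 28.7 in wildtype 1 to 4. NPC1-deficient 2 exceeded wildtype 1, so the groups overlapped, and NPC1-deficient 3 and 4 were again lowest, at 4 and 8 reads. The log2 fold change of -1.31 (SE 0.40) was not called (limma adjusted p = 0.294). In libraries 1 and 2 it came to -0.32, and in libraries 3 and 4 to -2.29.

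Egr4 (ENSMUSG00000071341, chromosome 6, 85511121 to 85513589, minus strand) is needed in the mouse for the maturation of male germ cells. Its normalized reads were 145, 112, 144 and 128 in NPC1-deficient 1 to 4, against 219, 184, 450.3 and 228 in wildtype 1 to 4. Wildtype 3 stood far above the other wildtype libraries, and all 4 wildtype libraries exceeded the highest NPC1-deficient one. The difference of -0.94 in log2 units, with an SE of 0.23, was not called (limma adjusted p = 0.130), and without wildtype 3 it was -0.67 (limma adjusted p = 0.227).

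Nr4a1 (ENSMUSG00000023034, chromosome 15, 101254269 to 101274795, plus strand) encodes the receptor also called Nur77. It had 587, 511, 604 and 687 normalized reads in NPC1-deficient 1 to 4, against 1026, 989, 1586 and 1053 in wildtype 1 to 4. Every NPC1-deficient library lay well below the lowest wildtype library, and wildtype 3 was the highest. The mean was 597 ± 71.9 in NPC1-deficient and 1163 ± 283 in wildtype libraries (SD, n = 4 each), so the NPC1-deficient mean was 51.3% of the wildtype one. The fall came to -0.94 in log2 units with an SE of 0.14, it passed the threshold (limma adjusted p = 0.0312), and it ranked 10 among all genes by p. Libraries 1 and 2 alone gave -0.88, and libraries 3 and 4 alone gave -1.004. Leaving out single libraries moved it between -1.01 and -0.78. The call was lost without NPC1-deficient 1 (limma adjusted p = 0.0513), NPC1-deficient 2 (0.113), NPC1-deficient 3 (0.1) or wildtype 2 (0.0534).

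Nr4a2 (ENSMUSG00000026826, chromosome 2, 57106830 to 57124003, minus strand), also called Nurr1 and known as a factor of midbrain dopamine neurons, had 48.1, 40.0, 49.1 and 47.5 normalized reads in NPC1-deficient 1 to 4, against 66.1, 59.5, 44.7 and 64.6 in wildtype 1 to 4. The groups overlapped through wildtype 3 alone. Its log2 fold change of -0.33 (SE 0.17) was not called (limma adjusted p = 0.824). Nr4a3 (ENSMUSG00000028341, chromosome 4, 48045153 to 48086447, plus strand), also called Nor1, had 130, 102, 106 and 156 normalized reads in NPC1-deficient 1 to 4, against 115, 112, 155 and 74.5 in wildtype 1 to 4. The libraries of both groups were mixed, and the difference of 0.14 in log2 units had an SE of 0.21 (limma adjusted p = 0.995). Without wildtype 4 it was -0.05.

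Arc (ENSMUSG00000022602, chromosome 15, 74669083 to 74672570, minus strand) had 103, 85.1, 75.2 and 48.5 normalized reads in NPC1-deficient 1 to 4, against 106, 104, 133 and 122 in wildtype 1 to 4. The groups met without overlapping, since NPC1-deficient 1 lay just under wildtype 2, and NPC1-deficient 4 was the lowest. The log2 fold change of -0.62 (SE 0.21) was not called (limma adjusted p = 0.393), with -0.17 in libraries 1 and 2 and -1.065 in libraries 3 and 4.

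Npas4 (ENSMUSG00000045903, chromosome 19, 4984355 to 4990316, minus strand) had 72.6, 74.0, 53.4 and 43.4 normalized reads in NPC1-deficient 1 to 4, against 77.5, 59.5, 129 and 86.1 in wildtype 1 to 4. Wildtype 2 lay below NPC1-deficient 1 and 2, so the groups overlapped. The difference of -0.50 in log2 units had an SE of 0.24 and was not called (limma adjusted p = 0.765), with 0.11 within libraries 1 and 2 and -1.11 within libraries 3 and 4. Exons of the 9 genes share no bases with the exons of another GENCODE M21 gene on either strand. Reads from introns of other genes or from transcripts outside that annotation were not tested.

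**Figure D2:**
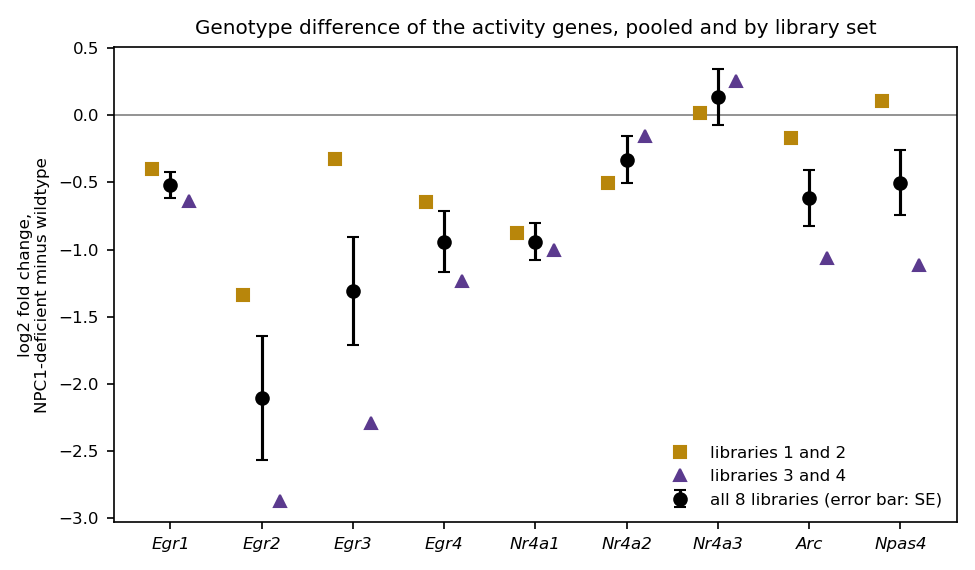
Log2 fold change (vertical axis, NPC1-deficient minus wildtype, on log2 of normalized reads + 1) for each activity gene over all 8 libraries (black, bars are SE), within libraries 1 and 2 (squares) and within libraries 3 and 4 (triangles). Nr4a1 lies at -0.88 in one set and -1.004 in the other, while Egr3, Arc and Npas4 lie further below 0 in libraries 3 and 4.

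Whether the genotype difference depended on the library set was tested with an interaction term in limma. The term was called for 0.078% of all genes, 12 in all, and for 0 of the 9 activity genes. At an unadjusted p under 0.05 it was reached for 4 of the 9 and for 13.4% of all genes. Those 4 were Npas4 with an interaction of -1.22 (SE 0.35, limma adjusted p = 0.201), Egr3 with -1.97 (SE 0.57, adjusted p = 0.203), Arc with -0.90 (SE 0.32, adjusted p = 0.261) and Egr2 with -1.53 (SE 0.65, adjusted p = 0.337). In each the difference was further below 0 in libraries 3 and 4. Nr4a1 had an interaction of -0.13 (SE 0.22, limma adjusted p = 0.846).

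Levels can be compared between genes only per length, so normalized reads were divided by the exonic length in kb (GENCODE M21). The order in NPC1-deficient libraries was Egr1 at 345 ± 19.6 normalized reads per kb, Nr4a1 at 170 ± 20.5, Egr4 at 61.6 ± 7.25, Arc at 25.5 ± 7.38, Nr4a3 at 20.6 ± 4.16, Npas4 at 14.7 ± 3.62, Nr4a2 at 11.4 ± 1.02, Egr2 at 4.77 ± 3.13 and Egr3 at 2.62 ± 1.48 (SD, n = 4). The ranges of neighbours overlapped from Arc to Nr4a2 and again for Egr2 and Egr3.

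In wildtype libraries the order of levels was Egr1 at 498 ± 73.1 normalized reads per kb, Nr4a1 at 332 ± 80.6, Egr4 at 126 ± 56.6, Arc at 38 ± 4.55, Npas4 at 21.3 ± 7.09, Egr2 at 19.6 ± 8.94, Nr4a3 at 19.1 ± 5.48, Nr4a2 at 14.5 ± 2.40 and Egr3 at 6.26 ± 2 (SD, n = 4). The ranges of neighbours overlapped for Egr1 and Nr4a1 and for the run from Npas4 to Nr4a2, and the other neighbours were apart. Egr1, Nr4a1 and Egr4 held the top of the order in both genotypes, and Egr3 the bottom.

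**Figure D3:**
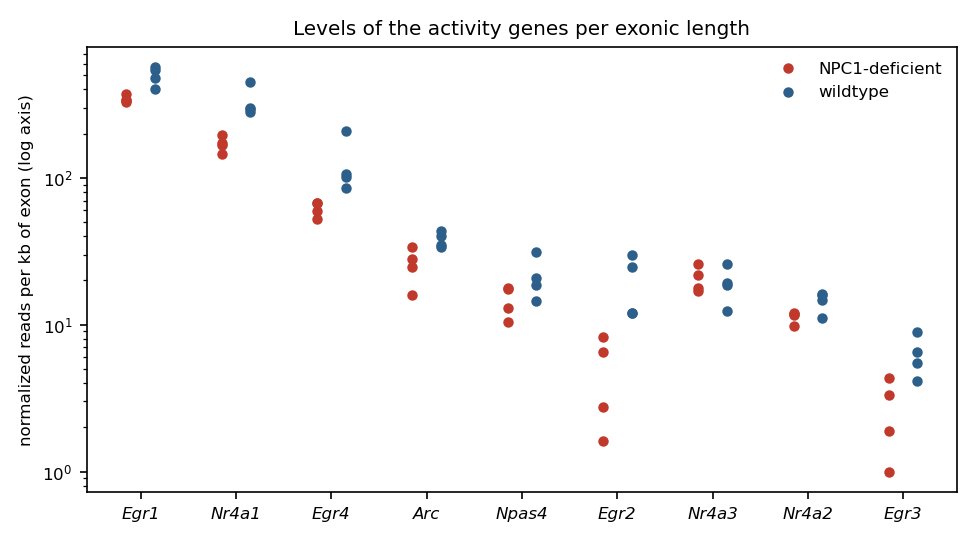
Normalized reads per kb of exon (vertical log axis) of the 9 activity genes, in wildtype order from high to low, with 1 point per library and NPC1-deficient (red) left of wildtype (blue). Egr1 and Nr4a1 are the most abundant in both genotypes, and the NPC1-deficient Egr2 points lie between 1.6 and 8.28, below the wildtype points at 12.1 to 29.7.

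Within the NR4A family, Nr4a1 made up 84.2% ± 0.838 of the summed level per kb in NPC1-deficient and 90.6% ± 1.58 in wildtype libraries, and Nr4a3 made up 10.1% ± 1.07 in NPC1-deficient and 5.22% ± 0.998 in wildtype libraries (SD, n = 4 each). Ratios between members of a family, and of Arc to Npas4, were compared by exact two-sided permutation tests, 10 in all, a comparison added after the values were seen. The log2 ratio of Nr4a1 to Nr4a3 was 2.28 ± 0.168 in NPC1-deficient and 3.36 ± 0.314 in wildtype libraries (exact p = 0.0286, adjusted over the 10 ratios 0.143). The ratio of Nr4a1 to Nr4a2 gave the same p-values, with 3.66 ± 0.112 in NPC1-deficient and 4.27 ± 0.564 in wildtype libraries (exact p = 0.0286, adjusted 0.143). None of the 10 ratios passed 0.05 after adjustment, and 0.0286 is the smallest exact p that this design allows. With only 2 of the 10 ratios at that floor, the adjusted test could not call them, however large their difference. In the EGR family, Egr1 made up 83.3% ± 1.83 in NPC1-deficient and 77.0% ± 4.81 in wildtype libraries.

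The libraries themselves differed in how they ranked. Wildtype 3 was the highest library for 5 of the 9 genes, and NPC1-deficient 2 was the lowest for 4. Libraries NPC1-deficient 3 and NPC1-deficient 4 were each the lowest for 2, and wildtype 4 was the lowest for Nr4a3. After group means were taken out, the log2 values of Nr4a1 and Egr4 went together over the 8 libraries with r = 0.897, and those of Arc and Npas4 with r = 0.796, the 2 highest values of the 36 pairs. The pair of Nr4a1 and Egr4 leans on wildtype 3, which deviated most from its group mean in both, by 0.47 and 0.83. The r without that library was not computed. In 14 pairs r was below 0, and it was lowest for Nr4a2 with Npas4 at -0.666, with Egr3 at -0.644 and with Egr4 at -0.626. These correlations describe 8 libraries that share their preparation and scaling.

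**Figure D4:**
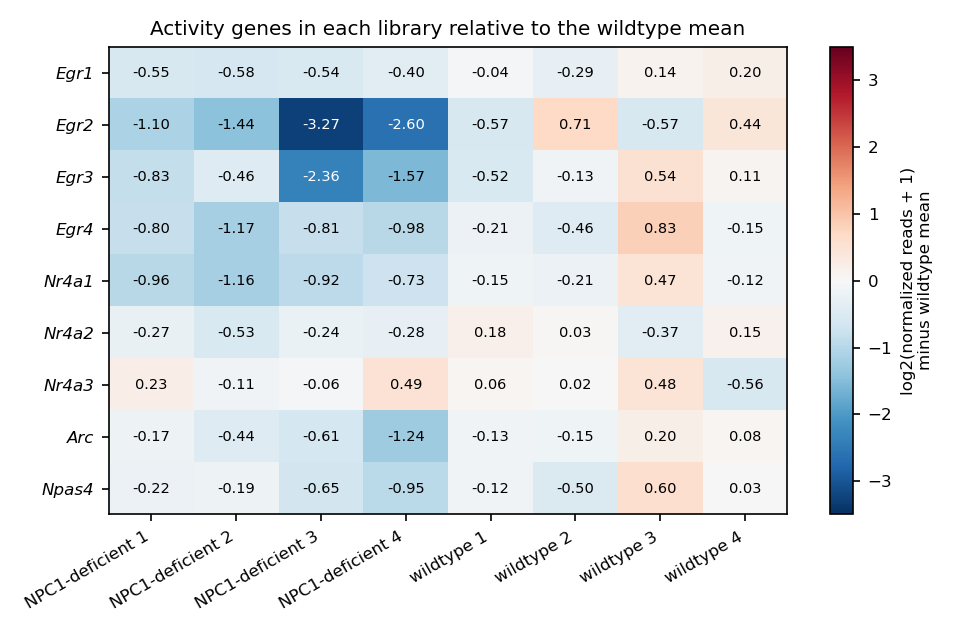
Log2(normalized reads + 1) minus the wildtype mean of the same gene (color and printed value) for the 9 activity genes (rows) in each library (columns, NPC1-deficient left of wildtype). The lowest values are those of Egr2 in NPC1-deficient 3 and 4, at -3.27 and -2.60, and the highest is Egr4 in wildtype 3 at 0.83.

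Markers of other retinal cells also differed in level between the groups. The 12 microglial and macrophage markers were each lower on average in NPC1-deficient libraries, with 0 called and none listed at 0. At an unadjusted p under 0.05, all 12 were lower, beside 4.37% of all genes. The summed level of the 12 was 1364 to 2856 normalized reads in NPC1-deficient and 2459 to 12540 in wildtype libraries. Wildtype 1, at 2459, lay within the NPC1-deficient range of that sum. All 10 rod markers also had a negative fold change, and their sum was 1650 to 2367 in NPC1-deficient and 2760 to 7110 in wildtype libraries. The 8 amacrine markers summed to 12190 to 13650 in NPC1-deficient and 13430 to 16210 in wildtype libraries, with Ptf1a listed at 0 in at least 1 library. Most of that sum was Pax6, which ganglion cells also express, with means of 11470 in NPC1-deficient and 11200 in wildtype libraries. Of the 7 amacrine markers tested 6 were negative, with a median of -1.45, and 0 were called. At an unadjusted p under 0.05, 4 of the 7 were lower, beside 4.37% of all genes. Gad1, which makes the transmitter GABA, averaged 370 ± 176 in NPC1-deficient and 1214 ± 450 in wildtype libraries (SD, n = 4 each), which is -1.76 on the log2 scale and was not called (limma adjusted p = 0.0679). Gad1 was picked as the example after its values were seen. The 7 markers of Müller glia and astrocytes summed to 9758 to 11070 in NPC1-deficient and 12380 to 13250 in wildtype libraries. Glul made up most of it, with means of 7242 in NPC1-deficient and 7812 in wildtype libraries. Of the 5 tested 4 were negative, with a median of -0.46. The lipoprotein gene Apoe, with means of 814 in NPC1-deficient and 2082 in wildtype, was the only one called (log2 fold change -1.31, limma adjusted p = 0.0482). Sums for bipolar cells were 2042 to 2179 in NPC1-deficient and 2145 to 3401 in wildtype libraries, for endothelium 202 to 283 in NPC1-deficient and 279.5 to 505 in wildtype, and for pericytes and fibroblasts 259 to 524 in NPC1-deficient and 335 to 407 in wildtype. Apart from the fits below, the part of these cells in the values of the 9 genes was not tested.

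With the mean log2 microglial level as a term, the log2 fold change of Nr4a1 was -0.98 (limma adjusted p = 0.0986), and with the rod level it was -0.87 (0.286). With the amacrine level, Nr4a1 stood at -0.51 (limma adjusted p = 0.806) and Egr2 at -4.12 (0.0333). With the microglial term Arc stood at -0.28, Egr2 at -1.33, Egr3 at -0.89 and Npas4 at -0.30. With the rod term Npas4 stood at -0.31. With the amacrine term Arc stood at -1.23, Egr3 at -2.10, Egr4 at -0.52 and Npas4 at -0.73, so Arc and Egr3 moved the opposite way to their values with the microglial term. Nr4a3 stood at -0.22, 0.51 and 0.85 with the microglial, rod and amacrine terms. Of the values given for these fits, only that of Egr2 with the amacrine term was called. The mean log2 rod and amacrine levels did not overlap between the genotypes, so in those fits marker level and genotype cannot be told apart. The microglial levels overlapped through wildtype 1 alone, at 7.39. They were 6.63 to 7.58 in NPC1-deficient and 8.78 to 9.61 in the other wildtype libraries. The microglial fit thus separates marker level from genotype only weakly. The level of Xist, made in females, was 0 to 68.1 in NPC1-deficient and 18.2 to 595 in wildtype libraries, and the part of sex in these differences was not tested.

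Other rapidly induced genes gave the nearest comparison. Over all 15386 genes tested, 48% were negative, and 672 were lower and 368 higher at an unadjusted p under 0.05. Of the 24 rapidly induced genes tested, 23 had negative fold changes, with a median of -0.34. At that threshold 16 of the 24 were lower and 0 higher. The only one called was Btg2, an antiproliferative gene, which fell by 0.64 (SE 0.10, limma adjusted p = 0.0312). That call was lost without NPC1-deficient 1 (limma adjusted p = 0.0513), NPC1-deficient 2 (0.113), NPC1-deficient 3 (0.1) or wildtype 3 (0.122), in libraries 1 and 2 alone (0.0732), and with the microglial (0.179), rod (0.157) or amacrine (0.469) level as a term. Klf2, a Krüppel-like factor, had -1.21 (limma adjusted p = 0.0678), and Dusp1, a phosphatase that switches off MAP kinases, had -0.30 (0.0679). Among later activity-regulated genes 22 of 23 were tested and 0 were called, 12 being positive and 10 negative, with a median of 0.0007. At an unadjusted p under 0.05, 4 of these 22 were lower, beside 4.37% of all genes, and 0 were higher. Those with the smallest p were Tiparp at -0.42 (limma adjusted p = 0.127), Scg2, a granin of dense-core vesicles, at -0.40 (0.173) and Gadd45b at -0.64 (0.317).

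The genes that carry signals to the activity genes, and the partners of their products, had medians near 0. Of 28 genes of calcium and MAP kinase signalling to the nucleus, 0 were called in limma. At an unadjusted p under 0.05, 1 of the 28 was lower, beside 4.37% of all genes, and 0 were higher. The median of the 28 was -0.01 and the values ran from -0.30 to 0.16. Mef2c, a calcium-regulated factor, had the smallest p there, with -0.30 (limma adjusted p = 0.669), followed by the CREB coactivator gene Crtc2 at -0.29 (0.802) and the calcineurin subunit gene Ppp3cb at 0.08 (0.844). Of 8 partners of EGR and NR4A proteins 0 were called, and 1 was higher at an unadjusted p under 0.05, beside 368 of all 15386 genes. The 8 partners had a median of 0.05. Among these Rxrg, a retinoid receptor of the kind that pairs with NR4A1 and NR4A2, had 0.22 (limma adjusted p = 0.134), Rxra had -0.21 (0.917) and Arnt had -0.15 (0.955). Of 13 genes for partners of the ARC protein 0 were called and 0 had an unadjusted p under 0.05, with a median of 0.02, and Sh3gl3, which encodes an endophilin, had 0.12 (limma adjusted p = 0.905). The next were Ap2m1, an adaptor subunit of clathrin coats, at 0.05 (limma adjusted p = 0.967) and the dynamin gene Dnm2 at -0.10 (0.975). Of 9 glutamate receptor genes 0 were called and 0 had an unadjusted p under 0.05, with a median of 0.03, and Grm5 and Grin1 had 0.15 and 0.13 (limma adjusted p = 0.866 and 0.981). Grin1 had 0.45 in libraries 1 and 2 alone (limma adjusted p = 0.0431) and -0.19 in libraries 3 and 4 alone (0.344).

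**Figure D5:**
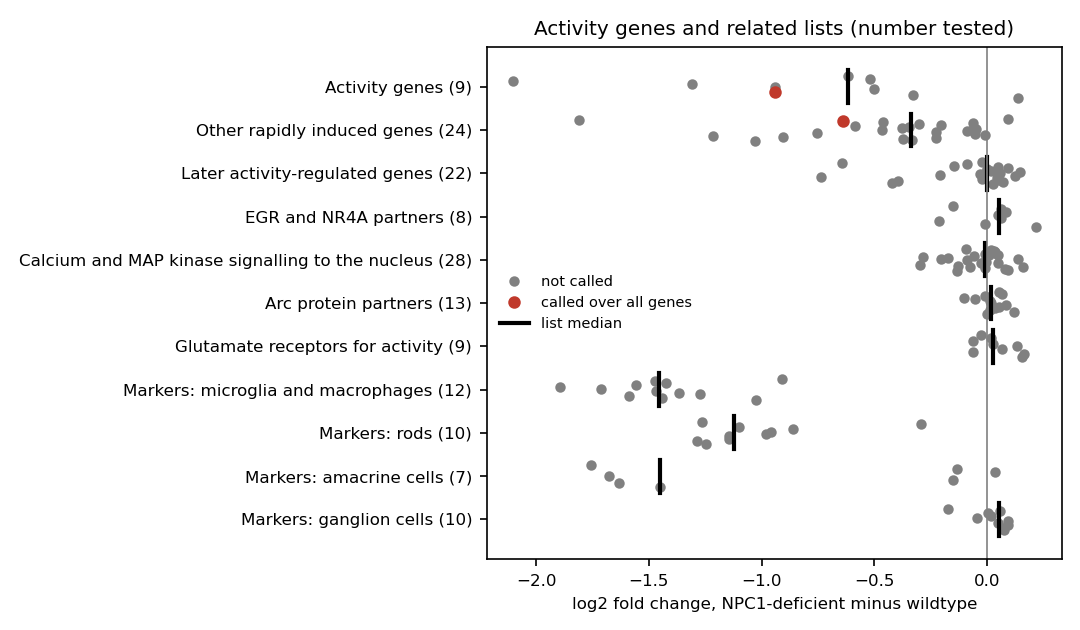
Log2 fold change (horizontal axis, NPC1-deficient minus wildtype) of each tested gene in the activity gene group, in 6 related lists and in 4 marker lists, with called genes in red and list medians as black bars. The medians are -0.62 for the activity genes and -0.34 for other rapidly induced genes, against -0.01 to 0.05 for the other 5 related lists.

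Among 12468 other genes with a mean of at least 50, those whose log2 values went most closely with the mean standardized profile of the 9 over the 8 libraries were Dusp1 with r = 0.987, Lmo7 with r = 0.955, the sterol transporter gene Abcg1 with r = 0.950, Npc1 with r = 0.949 and Oxr1 with r = 0.938. In all, 22 genes had an r of at least 0.9. With group means taken out, the closest were Pcdhb9 with r = 0.966, Btbd3 with r = 0.964, Wnt2b with r = 0.957, Map3k7 with r = 0.951 and Mbd1 with r = 0.949, and 25 genes reached 0.9. None of the first 5 recurred among the second 5. These values are descriptions over 8 libraries, in which the first measure contains the genotype difference. How many of the 12468 genes would reach 0.9 by chance was not tested, so the genes named may be chance matches.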

How the data were processed

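Each value in the authors' table is a normalized signal: the authors deposited whole reads divided by 1 size factor per library, as the values themselves show. Libraries were made with the TruSeq RNA v2 kit, per the labels' protocols, a kit whose reads carry no strand. The submitters' processing notes name mm10 as the build, and HTSeq 0.5.4p3, DESeq2 1.0.19 and CASAVA 1.8.2 as tools with no role stated; the aligner is not given in the sources used here. All 199536 values (100%) were whole reads within 1e-06 of a read. A value of 0 allows up to 3 reads (2.69 to 3.42 normalized), for counting error only.

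Genes with a mean of at least 10 were tested (15386 of 24942) on log2(value + 1), which understates changes of low genes, with limma 3.58.1 in R 4.3.3 (mean-variance trend, no covariate, Benjamini-Hochberg adjustment at 0.05). The fit was checked on simulated data, with a spread set by the mean level alone and no differences in cell composition. There it called 8% of changes of 0.35 log2 units, 22% of 0.5, 82% of 1 and 98% of 2. A gene that was not called can therefore still differ. In the data themselves large differences also went uncalled, as for Egr2 at -2.10 (SE 0.46) and Egr3 at -1.31 (SE 0.40). On recovered reads edgeR 4.0.16 and DESeq2 1.42.0 were alternatives, beside those given at the end. GENCODE M21 gave positions and lengths and held 98.1% of the identifiers. Promoter stretches are from RefSeq (GRCm38.p6). Named were all 9 members, Npc1, and of each related list the genes called and the 3 with the smallest p, and the 5 genes closest in profile by each of 2 measures; 1 gene of the glutamate receptor list that this rule names is not reported here. The tests of family ratios were added after the values were seen. Members and lists were chosen with earlier results of these data known.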

Additional observations from a re-analysis of the deposited data

Results flagged for a closer look

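Wildtype 3 stood apart from the other wildtype libraries for 2 of the 9 genes, Nr4a1 and Egr4. Its Nr4a1 value was 1586 normalized reads, and the gap to the next library took up 0.892 of the wildtype range. For Egr4 it had 450.3 normalized reads, and the gap took up 0.834 of the range. Both gaps exceed Dixon's critical value for 4 samples, which chance passes in about 1 in 20 groups. Each of the 9 genes was screened in both genotypes, at the highest and the lowest library, so a gap of this size can arise by chance. Without wildtype 3 the log2 fold change was -0.78 for Nr4a1 (limma adjusted p = 0.0343) and -0.67 for Egr4 (limma adjusted p = 0.227).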

How the results depend on the processing

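Over all genes 16 were called. The count was 10 with a minimum of 50, 246 with DESeq2, 99 with the library set as a term, 70 with the microglial and 57 with the rod marker level fitted, 57 in libraries 1 and 2 and 307 in libraries 3 and 4. Leaving out 1 library gave 2 (without NPC1-deficient 3) to 141 (without wildtype 1), with 4 without NPC1-deficient 2 or wildtype 2, 5 without wildtype 3, 26 without NPC1-deficient 1, 33 without NPC1-deficient 4 and 35 without wildtype 4. Of the 9 genes 1 was called. There were 4 with DESeq2 (Egr1, Egr2, Egr4 and Nr4a1, where 1.29% of genes were called lower), 3 with the library set as a term, 5 in libraries 3 and 4, 0 with the microglial or rod level, and 0 to 2 when 1 library was left out, being 0 without NPC1-deficient 1, NPC1-deficient 2 or NPC1-deficient 3 and 2 without wildtype 1. Without wildtype 2 it was Egr1 and not Nr4a1, and with the amacrine level Egr2 and not Nr4a1. With edgeR it was Nr4a1 (adjusted p = 0.0338, 0.065% called lower). The median of the 9 was -1.065 in libraries 3 and 4. The cause of these shifts was not tested.

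With the replicate block, 34 genes and 2 of the 9 (Egr1 and Nr4a1) were called. Same-numbered libraries deviated with correlations of -0.07 to -0.02, 0 of 8 libraries lay closest to the library of its own number, and the labels do not say that a number pairs animals. Signs turned for genes that were not called over all 8 libraries, namely Nr4a3 with the microglial level (-0.22) and without wildtype 4 (-0.0502, and up to 0.298 without wildtype 3), Npas4 (0.11) and Sh3gl3 (-0.0279) in libraries 1 and 2, Grin1 (-0.19, against a called 0.45 in libraries 1 and 2) in libraries 3 and 4, Rxra (0.0129) and Dnm2 (0.0676) with the rod level, and Crtc2 (0.17), Ap2m1 (-0.0312) and Grin1 (-0.0992) with the amacrine level. The median of all genes lay between -0.0028 and 0.0105 under the scalings tried. Egr2 and Egr3 rest on as few as 5 and 4 reads in NPC1-deficient 3, which limits their precision.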
